A study of Mus musculus with 504 samples.

Results

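Of the 50 pools of mCherry-positive, GFP-positive tumour cells (population P22), 14 held Tnc transcripts at 10 CPM or more (counts per 1000000 counts of the pool), and 36 lay below that level. The classes were chosen by the measured Tnc level itself, so its values are given as a description and support nothing. These 50 pools are part of 335 libraries that passed quality control in a study of MMTV-PyMT mice, whose mammary tumours arise from the polyoma middle T oncogene. Each library was made from 5 sorted cells with Smart-seq2, a full-length method for polyadenylated RNA that uses no molecular identifiers.

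All 50 pools came from 5 animals of 1 genotype, carrying the Tnc-CreERT2 allele with an MMTV-Flpo transgene, the RC::FrePe reporter and MMTV-PyMT, so pools with Tnc and pools below share every allele and agent. Flp recombinase under the MMTV promoter turns on mCherry in mammary tumour cells, and CreERT2 driven by Tnc switches such cells irreversibly to GFP once tamoxifen is present. Tamoxifen was given at 2 mg per dose, 2 doses a week, starting at week 9 of age, and tumours were collected at week 13 or 14. P22 cells were gated as EpCAM-high and positive for both colours, and the study describes them as cells passing through an epithelial-to-mesenchymal transition (EMT). GFP reports a past switch, whereas the transcript reports the cells at harvest. The table lists 55450 annotated mouse genes and no reporter, so GFP, mCherry and Cre transcripts were not measured here.

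Tenascin C is a large glycoprotein of the extracellular matrix, secreted around developing, healing and malignant tissue and scarce in most resting adult epithelium. It binds integrins, syndecans and other matrix proteins and loosens the grip of cells on fibronectin. In mammary tumours it is made by stromal cells and by some cancer cells, often at invasive borders, and this study uses its promoter to mark a partial EMT.

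Because the same promoter drives the Cre of this line, its sequence is shown: 250 bases before and 50 after an annotated Tnc start from RefSeq (GRCm38.p6, chr4:64046887-64047186, minus strand, 5′ to 3′). Capitals mark TATAAA and TATATAA, both searched on either strand.
Tnc promoter: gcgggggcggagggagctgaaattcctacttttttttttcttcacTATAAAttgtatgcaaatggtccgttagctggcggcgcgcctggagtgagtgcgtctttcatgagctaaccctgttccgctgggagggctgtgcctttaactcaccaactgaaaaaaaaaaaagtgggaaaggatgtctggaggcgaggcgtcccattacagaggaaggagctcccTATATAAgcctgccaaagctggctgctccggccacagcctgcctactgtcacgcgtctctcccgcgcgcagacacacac
TATATAA, a form of the TATA box, begins 29 bases before that start, and 3.24% of 32851 mouse promoter windows of this length hold it. TATAAA begins 205 bases before the start and occurs in 13.6% of the windows.

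Tnc (chromosome 4, 63959785 to 64047015, GRCm38) stood between 10.8 and 37.7 CPM in the 14 pools with Tnc, with a median of 17.2 CPM. In the 36 pools below, 24 had no Tnc read and the other 12 stood between 0.135 and 5.24 CPM. The lowest pool inside the threshold had 10.8 CPM and the highest outside it 5.24 CPM, so no pool lay close to 10 CPM on the lower side. By reads, the pools with Tnc held 37 to 215 and the pools below 0 to 42.

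The pools with Tnc were unevenly shared among animals. TENA2483 had 5 of 12 pools at 10 CPM or more, at 10.8, 15.6, 15.8, 20.0 and 22.8 CPM. TENA2560 had 4 of 8, at 15.6, 15.9, 26.5 and 37.7 CPM, and its other 4 pools had no read. TENA2462 had 3 of 12 (11.7, 17.2 and 23.5 CPM) and TENA2524 had 2 of 11 (17.3 and 17.7 CPM). TENA2517 had 0 of 7, with a highest value of 4.10 CPM, so it enters no comparison within an animal. A threshold of 5 CPM gave 15 pools with Tnc, 1 CPM gave 19 and 20 CPM gave 4, and no pool reached 50 CPM.

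**Figure D1:**
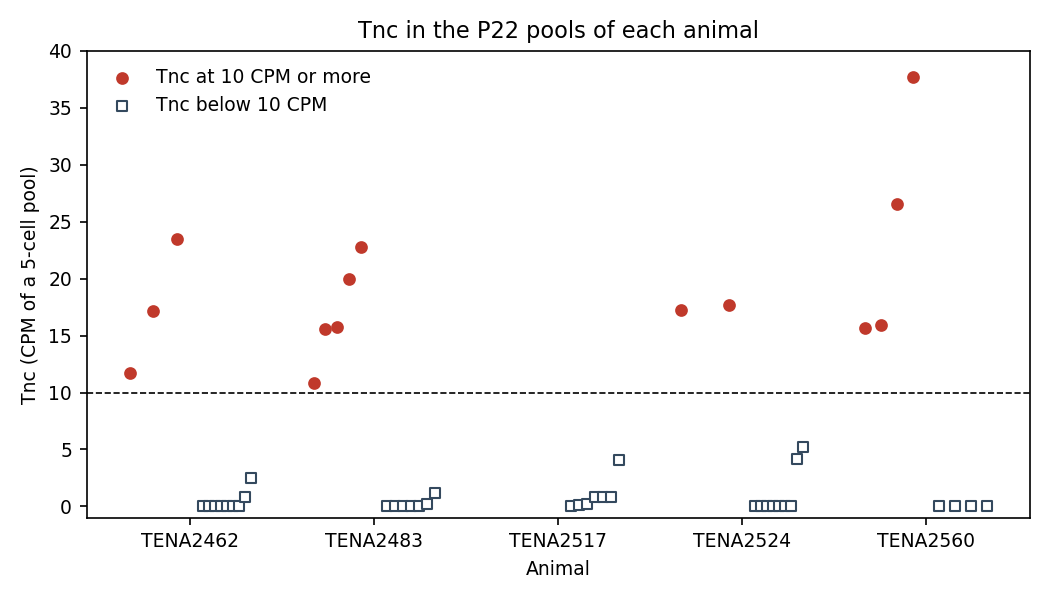
Tnc in CPM (vertical axis) in each P22 pool by animal (horizontal axis), with filled circles for the 14 pools at 10 CPM or more, open squares for the 36 pools below, and a dashed line at 10 CPM. TENA2517 has no circle, and the highest square lies at 5.24 CPM.

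P22 held Tnc in 28.0% of its pools, at low levels. Among the GFP-positive populations of the same line, 7 of 48 P09 pools reached 10 CPM (median of those 13.7 CPM), 5 of 26 P16 pools (30.4 CPM), 4 of 25 P10 pools (70.8 CPM) and 1 of 12 pools of the EpCAM-negative P15 (267 CPM). In the EpCAM-negative, mCherry-positive P05 it was 8 of 32 (69.8 CPM), in the mCherry-high P18 it was 2 of 55 (34.5 CPM), and in P17 0 of 11. The pools of P22 with Tnc thus had a median nearer to those of P09 than to those of P10 or P05. The 17 empty wells held no Tnc read. These shares come from 3 to 5 animals a population and were not tested against each other.

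Sequencing depth did not separate the classes. The 14 pools with Tnc had 2141792 to 9328566 counts and the 36 pools below 2536203 to 14230208. Genes with a read numbered 13104.5 at the median in pools with Tnc and 14025.5 in pools below. Mitochondrially encoded genes took 2.15% of counts at the median in pools with Tnc and 1.81% in pools below. The part of either measure in the results was not tested.

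P22 pools of both classes carried the transcripts of EpCAM-high epithelium. Epcam, the sorting antigen, stood at 2117 to 7938 CPM in the pools with Tnc (median 4406) and at 1249 to 6797 CPM in the pools below (median 3952). Krt8, a keratin of simple epithelia, had medians of 5230 CPM in pools with Tnc and 4952 CPM in pools below. Cdh1, which encodes E-cadherin, reached 10 CPM in 14 of 14 pools with Tnc and 36 of 36 below. For Krt8 and Cdh1 the pools with Tnc (2093 to 7940 CPM and 70.6 to 377 CPM) lay within the wider range of the pools below (438 to 11432 CPM and 38.0 to 561 CPM). For Epcam the ranges overlapped.

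To ask which genes differed between the classes, counts were summed per animal and class and fitted in edgeR with the animal as a block, since pools of 1 animal are not independent replicates. The fit held the sums of all 5 animals, and the contrast rests on the 4 that hold both classes. Whether a difference in a sum reflects fewer cells of a kind or less RNA per cell cannot be told apart. Of 16049 genes tested, 0 higher (0.0%) and 0 lower (0.0%) in pools with Tnc had a Benjamini-Hochberg adjusted p below 0.05. The smallest adjusted p was 1.00. At an unadjusted p below 0.05, 141 genes were higher (0.879%) and 262 lower (1.63%), together 403 (2.51%). DESeq2 on the same sums called 10 higher (0.0675%) and 34 lower (0.23%) of 14804 genes with an adjusted p. Among these, and described further on, were Suclg2, Ppp6c and Arsk (higher) and Ehmt2, Gadd45g, Fam193b, Snrnp200 and Alg8 (lower).

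The precision of the fit limits what this can show. Over the 7446 genes with a mean of at least 10 CPM, the median standard error of the log2 fold change was 0.33 and its median size 0.22. The fitted log2 fold change was above 0 in 43.9% of all genes tested, with a median of -0.07. Genes higher in pools with Tnc in 4 of 4 animals made up 4.61% and genes lower in 4 of 4 made up 6.52%.

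Vim encodes the intermediate filament vimentin of mesenchymal cells and of carcinoma cells in EMT. Of the genes compared for detection, Vim was among those that differed most on the higher side. It reached 10 CPM in 13 of 14 pools with Tnc and in 15 of 36 pools below. That difference of 51.2 percentage points was matched by no other of 9563 genes compared (0.0105%, Vim itself). These 9563 are the genes that reached 10 CPM in at least 10 P22 pools. Genes at that level in fewer pools were not compared, so shares of genes given for detection do not cover all genes tested. Counting only the 29 pools below from the 4 animals that also hold pools with Tnc, a choice made after seeing the data, Vim differed by 51.5 points and Qpct, a gene described further on, by 54.2. Pools with Tnc stood between 0 and 207 CPM (median 22.7), and pools below between 0 and 111 CPM (median 2.32), 16 of them with no read.

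By animal, Vim reached 10 CPM in 3 of 3 pools with Tnc against 6 of 9 below in TENA2462, and in 4 of 5 against 3 of 7 in TENA2483. It did so in 2 of 2 against 3 of 9 in TENA2524, and in 4 of 4 against 0 of 4 in TENA2560. The share was higher in pools with Tnc in all 4 animals, although pools below overlapped them in all but TENA2560. TENA2517, with no pool in the upper class, had Vim at 10 CPM or more in 3 of 7.

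On the summed counts (CPM with TMM factors) Vim averaged 34.2 ± 11.9 CPM in pools with Tnc and 10.6 ± 8.84 CPM in pools below (SD, n = 4 animals each). The sums with Tnc were 32.6, 21.5, 32.5 and 50.2 CPM in TENA2462, TENA2483, TENA2524 and TENA2560, against 13.0, 21.1, 8.21 and 0 CPM below. In TENA2483 the sums were nearly equal, and in TENA2560 the 4 pools below had no Vim read. The fitted log2 fold change was 2.16 ± 1.62 (SE), with an edgeR quasi-likelihood p of 0.238 and an adjusted p of 1.00, so Vim was not called. Without TENA2560 the log2 fold change was 1.11. For a single value over 4 animals, an exact two-sided sign-flip permutation test cannot go below p = 0.125.

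Itgb6, the integrin subunit that with alpha v binds fibronectin, tenascin C and latent TGF-beta, was another member of the partial EMT list whose detection was compared. It reached 10 CPM in 11 of 14 pools with Tnc and in 15 of 36 below, a difference at least matched by 0.554% of the 9563 genes. Levels were 0 to 67.3 CPM in pools with Tnc (median 27.9) and 0 to 104 CPM in pools below (median 5.94). The sums were higher with Tnc in 4 of 4 animals, at 39.8, 19.2, 32.3 and 22.5 CPM against 29.0, 10.7, 1.91 and 7.89 CPM below, in the order TENA2462, TENA2483, TENA2524, TENA2560. The log2 fold change was 1.62 ± 0.71 (edgeR unadjusted p = 0.0681, adjusted p = 1.00), and 0.94 without TENA2524. The highest pool of all was one below, in TENA2462.

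Vim and Itgb6 both belong to the list of partial EMT and invasive-front genes. Of its 30 members, 20 passed the filter on low counts, 0 were called, and 12 had a fitted log2 fold change above 0 and 8 below, with a median of 0.17 against -0.07 over all genes. Krt14, a keratin of basal and of leading invasive cells, reached 10 CPM in 14 of 14 pools with Tnc and 29 of 36 below, a difference at least matched by 7.73% of genes. Its medians were 197 CPM with Tnc and 182 CPM below, with a log2 fold change of 0.07 ± 0.19 whose sign turned under several settings. Krt17 reached 10 CPM in 12 of 14 pools with Tnc and 22 of 36 below (medians 129 and 58.4 CPM; 3.83% of genes), also with a sign that depended on the setting.

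Of 26 mesenchymal genes 12 were tested, 6 with a log2 fold change above 0 and 6 below, and 0 called. Their summed level was 135 to 713 CPM in pools with Tnc (median 330) and 43.3 to 699 CPM in pools below (median 205). Lgals1, which encodes galectin-1, was present in both classes, at medians of 132 CPM with Tnc and 121 CPM below. Snai1, an EMT transcription factor, reached 10 CPM in 9 of 14 pools with Tnc and 28 of 36 below (log2 fold change -0.27 ± 0.38). Sparc, a matricellular protein named after its values were seen, did so in 8 of 14 with Tnc and 8 of 36 below. Its highest pool stood at 298 CPM with Tnc and 61.0 CPM below (log2 fold change 3.56 ± 3.04, edgeR unadjusted p = 0.293). For Sparc the share of genes with at least that difference in detection was not worked out. Cdh2, which encodes N-cadherin, stood at 6.42 CPM or less in pools with Tnc and 2.12 CPM or less in pools below. Fn1, which encodes fibronectin, reached 10 CPM in 4 of 14 pools with Tnc and 6 of 36 below, and its log2 fold change of -1.03 ± 2.61 changed sign with the setting. The 4 members Twist1, Twist2, Lox and Pdgfrb had no read in any P22 pool.

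**Figure D2:**
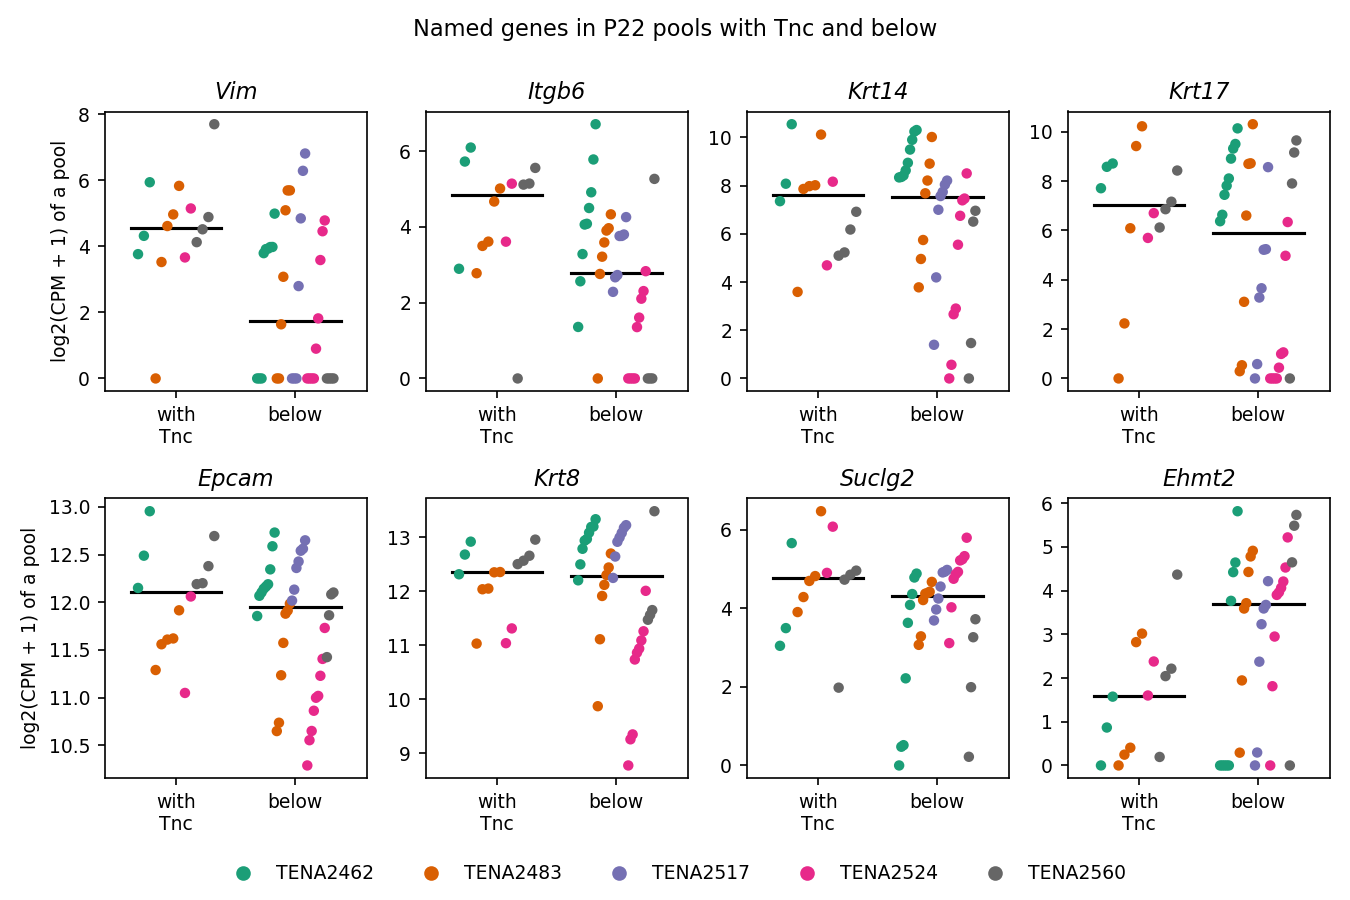
Level of 8 genes as log2(CPM + 1) (vertical axes) in each P22 pool, pools with Tnc on the left and pools below on the right of each panel, coloured by animal, with black bars at the class medians. Vim has 1 pool with Tnc at 0 and 16 pools below at 0, and for Krt8 the 14 pools with Tnc lie within the range of the 36 pools below.

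No matrix partner or receptor of tenascin C passed the test. Of 25 listed, 19 were tested, 7 with a log2 fold change above 0 and 12 below (median -0.23), and 0 were called. Sdc4, a heparan sulfate proteoglycan that acts with integrins at adhesions, was the most abundant, at a median of 2267 CPM in pools with Tnc and 1553 CPM in pools below. Its log2 fold change was 0.25 ± 0.14 (unadjusted p = 0.145). Itgb1, the common beta integrin, had medians of 138 CPM with Tnc and 110 CPM below. Fbln2, a fibulin of the extracellular matrix, was the 1 member with an unadjusted p below 0.05: 0 to 127 CPM with Tnc (median 22.1), 0 to 116 CPM below (median 13.4). It reached 10 CPM in 11 of 14 pools with Tnc and 21 of 36 below, a difference at least matched by 7.01% of genes. The other tenascins (Tnr, Tnn and Tnxb) stayed at 4.29 CPM or less in every P22 pool.

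Since no gene was called, the 8 of smallest unadjusted edgeR p in each direction are named as not called; each lay the same way in 4 of 4 animals. On the higher side were Suclg2 (a subunit of mitochondrial succinyl-CoA ligase), Ppp6c (a protein phosphatase catalytic subunit), Ifngr1 (an interferon gamma receptor chain), Arsk (a lysosomal sulfatase), mt-Co1 (a cytochrome c oxidase subunit), Efhd2, Fbln2 and Actr10 (a dynactin subunit). Their log2 fold changes ran between 0.35 for mt-Co1 and 1.96 for Arsk.

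Suclg2 had 2.95 to 87.9 CPM in pools with Tnc (median 26.4) and 0 to 54.7 CPM in pools below (median 18.8). The sums were 25.8, 48.3, 64.6 and 17.6 CPM with Tnc in TENA2462, TENA2483, TENA2524 and TENA2560, against 8.57, 19.4, 32.7 and 4.71 CPM below. Each animal's sum with Tnc was higher, but the classes overlapped across animals. The log2 fold change was 1.45 ± 0.25 (edgeR unadjusted p = 0.00181, adjusted p = 1.00). DESeq2 called it (adjusted p = 0.00203).

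Ppp6c had sums of 58.5 ± 1.89 CPM with Tnc and 32.5 ± 5.89 CPM below (SD, n = 4 animals each). The 4 sums with Tnc all exceeded the 4 below, a pattern that 0.592% of all genes tested showed in this direction. Its log2 fold change was 0.87 ± 0.18 (edgeR adjusted p = 1.00), and DESeq2 called it (adjusted p = 0.0316). At a Tnc threshold of 20 CPM it was -0.03.

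On the lower side stood Ehmt2, Gadd45g, Fam193b, Nisch, Snrnp200, Plekhm1, Dkkl1 and Alg8, with log2 fold changes between -2.82 for Ehmt2 and -0.68 for Dkkl1. Ehmt2 encodes a histone H3 lysine 9 methyltransferase (G9a), Gadd45g a stress-response protein, Snrnp200 a spliceosomal helicase, and Alg8 an enzyme of protein glycosylation.

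Ehmt2 had the smallest unadjusted p of all genes. It reached 10 CPM in 1 of 14 pools with Tnc and in 21 of 36 below, a difference of -51.2 percentage points matched by no other of the 9563 genes. Pools with Tnc had 0 to 19.6 CPM (median 2.01) and pools below 0 to 55.4 CPM (median 11.9). The 4 sums were 1.16, 2.15, 2.85 and 4.84 CPM with Tnc in TENA2462, TENA2483, TENA2524 and TENA2560, against 10.3, 19.1, 16.3 and 26.7 CPM below, without overlap. In this direction 1.1% of all genes tested did not overlap. The log2 fold change was -2.82 ± 0.40 (edgeR unadjusted p = 0.000703, adjusted p = 1.00). DESeq2 called it (adjusted p = 2.44e-06). The 1 pool with Tnc above 10 CPM was R7 of TENA2560, the pool with the highest Tnc.

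Snrnp200 reached 10 CPM in 3 of 14 pools with Tnc and 21 of 36 below (medians 3.03 and 14.5 CPM; 0.282% of genes had at least this difference). Alg8 did so in 4 of 14 with Tnc and 18 of 36 below, and 9 pools with Tnc had no read. For Alg8 the share of genes with at least that difference was not worked out. Plekhm1, an adaptor of late endosomes, averaged 11.7 ± 2.40 CPM with Tnc and 26.1 ± 2.21 CPM below over the sums (SD, n = 4 animals each). Its sums did not overlap, a pattern that 1.1% of all genes tested showed in this direction. Gadd45g, at 42.7 to 248 CPM with Tnc and 103 to 383 CPM below over the 4 sums, overlapped between the classes.

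The same split was made in P09. Its sample labels give it as GFP-high and EpCAM-medium, a gate that the series text lists under the name P18 instead, and the labels are followed here. Its 7 pools with Tnc and 41 below come from the same 5 animals. There edgeR called 0 of 14267 genes in either direction (0.0%), with 30 higher (0.21%) and 678 lower (4.75%) at an unadjusted p below 0.05. Of the 8 genes named as higher in P22, 0 were above 0 in P09 and 8 below, where 78.8% of all genes tested lay below 0. Of the 8 named as lower, 5 were below 0 and 3 above. Suclg2 had a log2 fold change of -0.999 ± 0.57 in P09 and Ehmt2 one of 0.09 ± 1.25. Vim had -4.16 ± 3.74 and reached 10 CPM in 3 of 7 P09 pools with Tnc and 11 of 41 below.

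The difference between the splits, P22 minus P09, was tested in 1 fit with an interaction term. It called 0 of 18148 genes (0.0%), with 3.66% at an unadjusted p below 0.05. For Suclg2 the difference was 2.45 ± 0.65 (unadjusted p = 0.00419, adjusted p = 1.00), for Ehmt2 -2.90 ± 1.46 and for Vim 5.67 ± 4.01 (both adjusted p = 1.00). The P22 values that chose Suclg2 and Ehmt2 enter this difference, so their values here are a description and no separate support. In P10, with 4 pools with Tnc and 21 below, edgeR called 0 genes, with 11 higher (0.1%) and 172 lower (1.56%) at an unadjusted p below 0.05, where 75.6% of all genes tested had a log2 fold change below 0. Of the 8 genes named as higher in P22, all tested in P10, 7 lay below 0 and 1 above. Of the 8 named as lower, 6 were tested there, 5 of them below 0. P16 and P18 held both classes in only 2 animals and were not tested at 10 CPM. In P16, Ehmt2 reached 10 CPM in 4 of 5 pools with Tnc and 6 of 21 below. Suclg2 did so there in 0 of 5 and 13 of 21, and Vim in 2 of 5 and 2 of 21. In P18, Ehmt2 did so in 0 of 2 pools with Tnc and 16 of 53 below. For Suclg2 the P18 counts were 2 of 2 and 47 of 53, and for Vim 0 of 2 and 12 of 53.

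**Figure D3:**
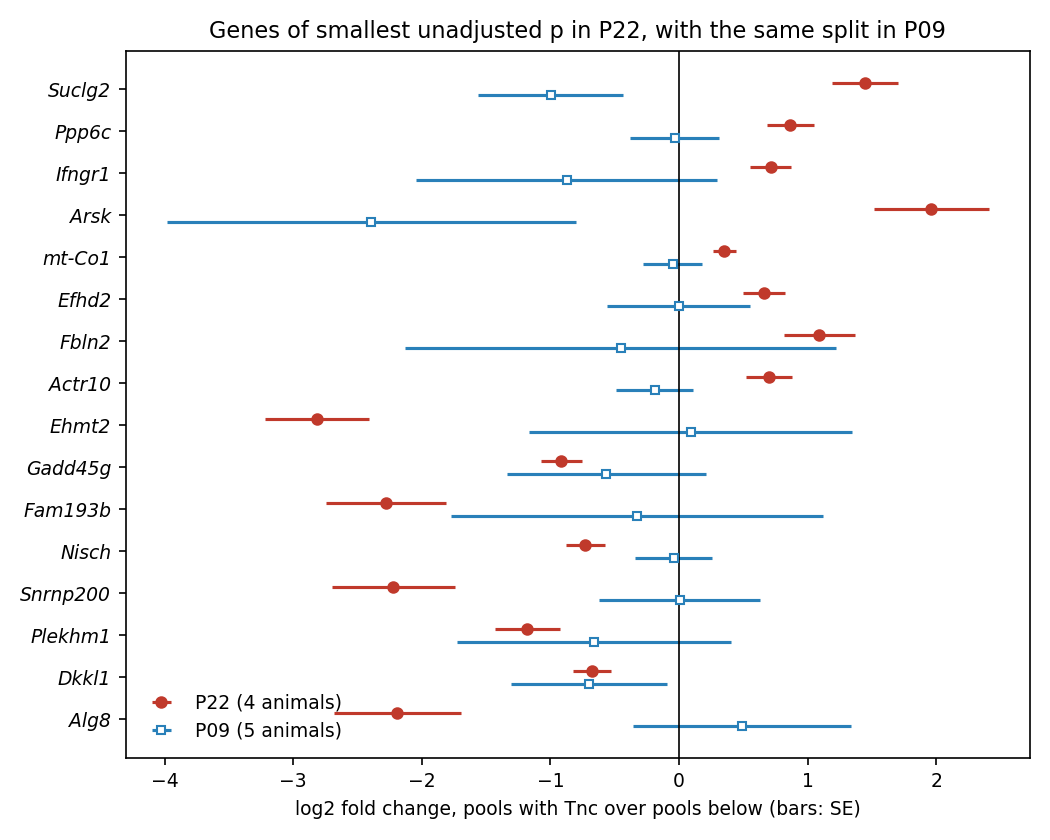
Log2 fold change of pools with Tnc over pools below (horizontal axis, bars are SE) for the 16 genes of smallest unadjusted p in P22 (filled circles, 4 animals) and for the same genes in P09 (open squares, 5 animals). The P22 values chose the genes; the 8 genes on the higher side all lie below 0 in P09.

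Across the 50 pools the Tnc level ran most closely with Spry4, an inhibitor of receptor tyrosine kinase signalling (Spearman rho 0.489). Vdac1, a channel of the outer mitochondrial membrane (0.487), Nectin2, an adhesion protein (0.476), Qpct, which forms pyroglutamate at peptide ends (0.474), and Hmg20b (0.471) followed. The most opposed were Zdhhc5, a palmitoyltransferase (-0.492), Tmem132a (-0.463) and Zfhx3 (-0.455). The points share animals and depth. Only the same 9563 genes were ranked, and their middle (1st to 99th percentile) ran between -0.317 and 0.352. Spry4 reached 10 CPM in 5 of 14 pools with Tnc and 5 of 36 below, and the share of genes with at least that difference was not worked out. Qpct did so in 10 of 14 with Tnc and 11 of 36 below (0.251% of genes), 6 of these 11 in TENA2517. Tmem132a did so in 5 of 14 with Tnc and 29 of 36 below, a difference at least matched by 0.0523% of genes.

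By gene list, the members of hypoxia and glycolysis lay together. Of 24, all tested, 1 had a log2 fold change above 0 and 23 below, with a median of -0.34 against -0.07 over all genes, and 0 were called. Aldoa, a glycolytic aldolase, had medians of 816 CPM with Tnc and 936 CPM below (log2 fold change -0.33 ± 0.12, edgeR unadjusted p = 0.0403). Ldha, lactate dehydrogenase, had 700.2 CPM with Tnc and 790.2 CPM below (-0.14 ± 0.20). Adm and Bnip3, both hypoxia-inducible and named after their values were seen, reached 10 CPM in 4 and 5 of 14 pools with Tnc, against 23 and 24 of 36 below. The share of all genes with at least these differences in detection was not worked out. The summed level of the list overlapped, at 2855 to 6620 CPM with Tnc and 1961 to 9061 CPM below, and was higher with Tnc in 2 of 4 animals. Gapdh, one of the 24, has many processed copies, so its counts are uncertain.

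Mitochondrially encoded genes lay mostly on the other side, 11 of 13 above 0 with a median of 0.19 and 0 called. mt-Co1 had medians of 3677 CPM with Tnc and 2873 CPM below, and mt-Cytb, which encodes cytochrome b, 3541 and 2727 CPM. Nuclear copies of some of these genes can share their reads, and mt-Co2 stood at medians of only 5.32 CPM with Tnc and 3.78 CPM below.

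NF-kB and inflammatory genes had 15 of 20 tested members above 0 (median 0.32) and 0 called, where 43.9% of all genes tested lay above 0. Their summed level had medians of 5565 CPM with Tnc and 5925 CPM below, and was higher with Tnc in 3 of 4 animals. Nfkb2, an NF-kB subunit named after its value was seen, had 0.79 ± 0.23 (edgeR unadjusted p = 0.0168), with medians of 35.0 CPM with Tnc and 19.3 CPM below. Cell cycle genes went the other way, with 5 of 18 above 0 and a median of -0.76. The summed level of that list hardly differed at the median, at 80.0 CPM with Tnc and 79.0 CPM below. It was higher with Tnc in 1 of 4 animals. Mki67, a proliferation marker, reached 10 CPM in 0 of 14 pools with Tnc and 3 of 36 below, and did not pass the filter on low counts, so it was not tested.

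Lineage lists had medians between -0.46 and 0.14. Simple epithelial and junction genes had 19 of 32 above 0 (median 0.07), basal and myoepithelial genes 8 of 15 (0.05), and luminal progenitor and hormone-sensing genes 8 of 14 (0.14). Ltf, which encodes lactoferrin, had a log2 fold change of 0.63 ± 0.17 and Igfbp5, an insulin-like growth factor binding protein, one of 0.32 ± 0.10, both higher in 4 of 4 animals and neither called. Milk protein genes had 4 of 13 above 0 (-0.46). Csn3, which encodes kappa casein, stood at medians of 7431 CPM with Tnc and 6312 CPM below, while its log2 fold change within animals was -0.10 ± 0.15, lower in 3 of 4 and not called.

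Among TGF-beta genes, 13 of 23 were above 0 (0.05). Id2, an inhibitor of helix-loop-helix factors, had medians of 89.4 CPM with Tnc and 137 CPM below (log2 fold change -0.52 ± 0.18). In P09 the same split went the other way for Id2, at 0.86 ± 0.17 (edgeR unadjusted p = 0.00170, adjusted p = 0.950). The difference of the splits, P22 minus P09, was -1.37 ± 0.24 (edgeR unadjusted p = 0.000281) and was not called. Ccn2, a matricellular growth factor that TGF-beta and YAP induce, reached 10 CPM in 14 of 14 pools with Tnc and 25 of 36 below, with medians of 292 and 71.1 CPM. Its log2 fold change of 0.83 ± 0.30 (edgeR unadjusted p = 0.0400) was not called, and 1.61% of genes had at least that difference in detection. Immediate early and stress genes had 8 of 25 above 0 (-0.12), interferon response genes 8 of 21 (-0.30), Notch and Wnt genes 7 of 15 (-0.09), collagen and matrix genes 10 of 17 (0.21) and matricellular genes 7 of 10 (0.28). In none of these lists was a member called.

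**Figure D4:**
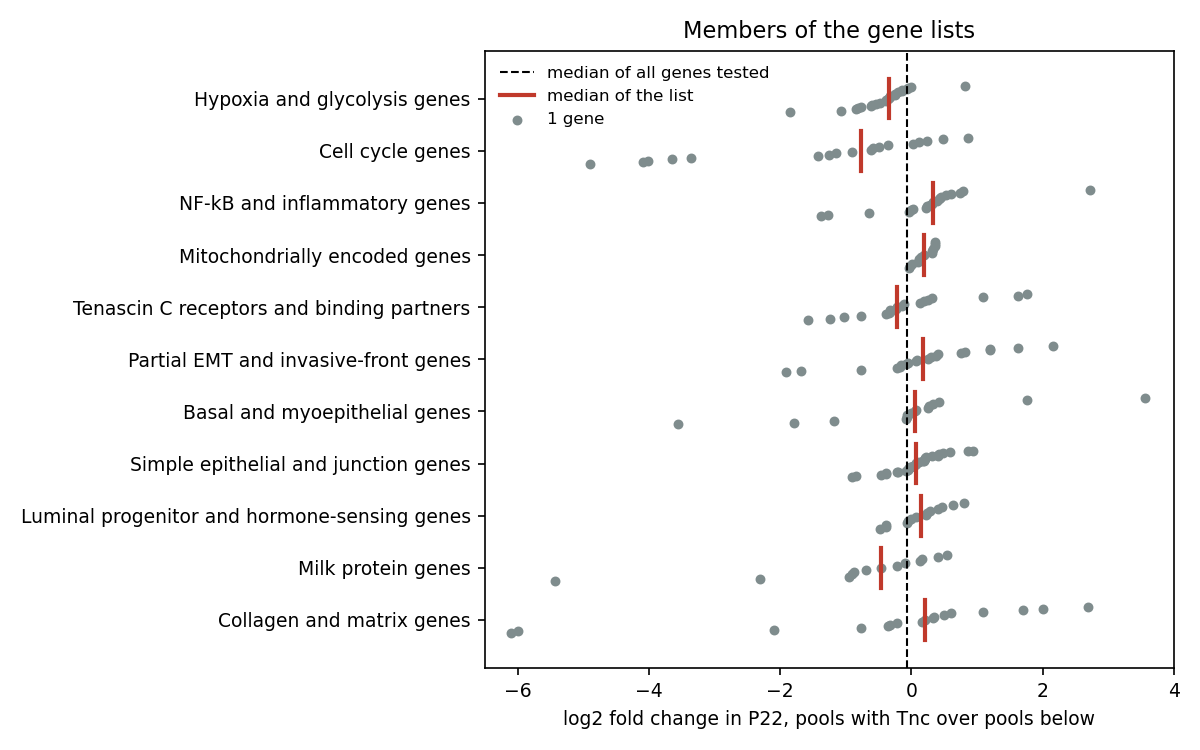
Log2 fold change of pools with Tnc over pools below in P22 (horizontal axis) for each tested member (grey points) of 11 gene lists, with red bars at the list medians and a dashed line at the median of all genes tested, -0.07. Hypoxia and glycolysis genes have 1 member above 0 of 24, and none of the points passed the test.

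Lymphocyte, fibroblast, endothelial, pericyte and adipocyte markers summed to at most 80.4 CPM in any P22 pool, and the myeloid and Schwann cell lists to more. Ptprc, the pan-leukocyte CD45, had no read in any of the 14 pools with Tnc and at most 5.81 CPM below. Lymphocyte markers summed to at most 2.80 CPM in a pool with Tnc and 7.51 CPM in a pool below, and fibroblast markers to at most 67.5 CPM and 33.0 CPM. Of the 15 fibroblast markers, Col1a2, Col3a1, Islr and Dpt had no read in any P22 pool. Endothelial markers summed to at most 30.6 CPM in each class, pericyte markers to 60.9 CPM with Tnc and 80.4 CPM below, and adipocyte markers to 4.94 CPM and 62.2 CPM. Macrophage and myeloid markers summed to 380 to 2210 CPM with Tnc and 70.6 to 3091 CPM below, nearly all of it Cd14. Cd68 reached 10 CPM in 9 of 14 pools with Tnc and 22 of 36 below (medians 16.4 and 13.4 CPM), and Csf1r stood at 5.45 CPM or less with Tnc and 19.3 CPM or less below. Schwann cell markers summed to 57.4 to 170 CPM with Tnc and 10.2 to 207 CPM below. Sox10, on that list and also known in mammary epithelium, stood at medians of 51.1 CPM with Tnc and 60.3 CPM below, while its fitted log2 fold change within animals was 0.34 ± 0.23, higher in 3 of 4 and not called.

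For the lineage markers Krt5, Acta2 and Col1a1, 2 pools stood apart, and both held Tnc. For the adipocyte and pericyte lists the highest sums lay in pools below (62.2 and 80.4 CPM, against 4.94 and 60.9 CPM with Tnc). R3 of TENA2462 had Krt5 at 112 CPM and Acta2, smooth muscle actin, at 12.9 CPM, with Krt14 at 1493 CPM, while every other P22 pool had Krt5 at 5.89 CPM or less. R7 of TENA2560 was the 1 pool with Col1a1 at 10 CPM or more (47.0 CPM), and it also had the highest Tnc (37.7 CPM) and Fn1 (143 CPM). With both left out, edgeR called 0 genes. Vim then had a log2 fold change of 2.31, Itgb6 1.34, Ehmt2 -3.44 and Suclg2 0.98, while Krt5 turned to -1.003 and Krt14 to -0.34.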

How the data were processed

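Raw read counts per gene were deposited for 504 wells (487 with cells, 17 empty), as whole numbers. The submitters' processing notes name STAR, SAMtools, featureCounts, Subread and the build mm10 (versions and strand setting not given in the sources used here), so overlapping genes may share reads. All 55450 identifiers matched GENCODE on GRCm38. CPM of a pool are counts per 1000000 of its total. P22 pools marked as passing quality control (50 of 56; the 6 failed pools had no Tnc read) were split at 10 CPM of Tnc and summed per animal and class.

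edgeR 4.0.16 (TMM, filterByExpr by class, robust quasi-likelihood F test, animal as a block, 3 residual degrees of freedom) was run in R 4.3.3 on all genes but Tnc, with Benjamini-Hochberg adjustment at 0.05. The animal pairs the sums because both come from the same mouse. limma 3.58.1 and DESeq2 1.42.0 were used for alternatives. The code was tested on simulated data. Reads are not independent molecules, so depth overstates counting precision.

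Named genes were a fixed list, called genes or, with fewer than 5 called, the 8 of smallest p in each direction with a mean of 10 CPM or more in the higher class, the 3 most abundant and any called member of each described list, and the 5 genes most and 3 least correlated with Tnc over pools. Symbols of predicted genes and pseudogenes were passed over, and 1 named gene is not reported here. Members, lists and named genes were chosen with earlier results of these data known. Lists included 25 sets; the Tenascin family set held 3 genes and none passed the filter.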

Additional observations from a re-analysis of the deposited data

Results flagged for a closer look

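In 12 of 84 groups of animal sums examined for the named genes, 1 animal's sum lay far from the rest by Dixon's criterion. Chance meets it in about 1 group in 20 only where values are normally distributed. Whether these CPM sums are so was not tested, and the 12 groups are given as a description. In pools with Tnc (4 animals), TENA2462 stood high for Krt5 (49.3 CPM, others 0.124 to 1.11) and Acta2 (6.18 CPM, others 0.372 to 0.743). TENA2462 stood low for Id2 (70.0 CPM, others 127 to 137). TENA2560 stood high for Col1a1 (8.26 CPM, others 0.183 to 0.620). TENA2524 stood high for Pecam1 (5.46 CPM, others 0 to 0.612), Arsk (21.8 CPM, others 10.3 to 11.4) and Spry4 (24.3 CPM, others 7.16 to 9.31).

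In pools below (5 animals), TENA2483 stood high for Fn1 (15.6 CPM, others 0.0448 to 3.52) and TENA2560 for Fam193b (24.7 CPM, others 5.82 to 10.5). TENA2517 stood high for Qpct (27.3 CPM, others 0 to 5.63) and Aldoa (2152 CPM, others 899 to 1212). TENA2462 stood high for Zdhhc5 (35.5 CPM, others 9.00 to 15.3).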

How the results depend on the processing

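No gene was called in 18 of 19 alternatives, and DESeq2 called 10 higher and 34 lower, with the cause not tested. Some of the 18 could change little. Keeping only sums of at least 2 pools dropped none, and the failed pools that were added held only 498 to 7879 counts each. Leaving out TENA2517 removed no contrast within an animal. With no replicate block (the pairing by animal dropped), 0 were called, with 320 genes at an unadjusted p below 0.05 against 403. Leaving out 1 animal in turn called between 0 and 0 genes in each direction, and left 3 or 4 animals with both classes. Of 794 values of 42 named genes under alternatives, 738 kept sign and call, 8 were called by DESeq2 alone, and 48 changed sign; 27 genes never changed sign. No change of sign was called. Splitting P09 and P10 at 5 CPM called 0 genes in each, as at 10 CPM. P18 held both classes in 3 animals at 5 CPM, and the outcome of its fit is not reported here. Krt8 (main value -0.02) was 0.0323 with RLE factors, 0.0323 in DESeq2, 0.0770 with single pools as units, 0.16 against pools with no Tnc read, 0.12 with equal weight of pools, 0.0246 without R3 of TENA2462 and R7 of TENA2560, and -0.12 to 0.0751 with 1 animal left out. Acta2 was 0.0409 with RLE factors, 0.0483 in DESeq2, 0.92 without the block, 0.77 at 20 CPM, 0.21 with equal weight, 0.0356 without pools of Ptprc, Col1a1 or Pecam1, 0.29 in the joint fit, and -0.76 to 0.39. Without the block Fn1 was 1.45, Cdh1 -0.0600 and Pecam1 0.58. At 20 CPM, Krt17 was -0.0609, Cdh1 -0.38, Ppp6c -0.0300, Ifngr1 -0.28, Arsk -0.48, Ltf -0.58 and Ccn2 -0.12; at 5 CPM Fn1 was 3.02. In the joint fit Krt14 was -0.0750, Krt17 -0.11, Cdh1 -0.10, Fn1 2.22 and Igfbp5 -0.23; with equal weight Fn1 was 0.45. Without pools of Ptprc, Col1a1 or Pecam1, Krt5 was -0.0871 and Col1a1 -0.60. Without the 2 pools that stood apart, a choice made after seeing the data, Krt5 was -1.003, Krt14 -0.34 and Col1a1 -0.54. With 1 animal left out, Krt5 ran between -1.04 and 0.82, Krt14 -0.0488 and 0.25, Krt17 -0.44 and 0.77, Cdh1 -0.0504 and 0.28, Fn1 -2.60 and 0.54, and Pecam1 -2.82 and 0.10. The median SE of the log2 fold change was 0.66 over all genes tested and 0.33 over those with a mean of at least 10 CPM.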
